A study of Mus musculus with 17 samples.

Results

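The mitochondrial ribosomal protein genes are the nuclear genes, with symbols in Mrpl (large subunit) or Mrps (small subunit), that encode the proteins of the ribosome inside mitochondria. Members were the symbols of the deposited count table made of Mrpl or Mrps, a number and at most 1 further letter, with 10 or more counts in at least 3 libraries. Of 25899 genes in the table, 78 had such a symbol and 74 were kept, each with 10 or more counts in all 17 libraries. The lowest member kept was Mrpl41, with 18 to 37 counts per library. The other 4 symbols, Mrpl40, Mrps6, Mrps34 and Mrpl53, had 0 counts in every library. Exons of Mrps6, Mrps34 and Mrpl53 overlap exons of other genes in the annotation, while those of Mrpl40 do not, and why these symbols are at 0 was not tested.

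Newly made RNA was measured in E14tg2a mouse embryonic stem cells (129SV) without endogenous ERK1 and ERK2. They carry FLAG-ERK2 Q103A, a form of ERK2 that PP1 can block, and cRAF-ErT2, a RAF fusion activated by 4-hydroxytamoxifen (4OHT). The 6 groups were PP1 with 4OHT (3 libraries), PP1 (3), a MEK inhibitor (MEKi) with 4OHT (3), MEKi (3), 4OHT (3) and DMSO (2), with 250 nM 4OHT for 2 h, 1 µM MEKi and 2 µM PP1. All groups shared the engineered genotype, serum with LIF, 250 nM of the FGF receptor inhibitor PD173074 for 24 h, earlier growth with 2 µM Chir99021, and 5 mM ethynyl uridine for 15 min, whose labelled RNA was captured and is called new RNA here. Libraries carry clone letters a, b or c (DMSO b and c), all of 1 engineered line, so p-values measure the spread between these libraries.

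Total counts ran between 5239690 and 11093390 per library, and the members took between 0.177% and 0.300% of them. A set of 14 high-count loci that rise and fall together took between 9.38% and 42.0% of a library's counts, so levels are given as CPM (counts scaled to a common library size) after TMM scaling, which sets the typical gene level between libraries. All 10 embryonic stem cell markers checked were present, while 5 neural markers summed to between 4.75 and 14.3 CPM, with Tubb3 at 0 in all libraries, and 9 fibroblast markers to between 2.23 and 9.34 CPM. The summed new RNA of Spry4 and Dusp6, feedback inhibitors of ERK signalling, was between 2456 and 2767 CPM in 4OHT cells, against 178 and 204 CPM in DMSO cells. The same sum was between 879 and 991 CPM with PP1 and 4OHT, against 91.0 to 101 CPM with PP1, and between 6.27 and 8.08 CPM with MEKi and 4OHT, against 37.4 to 50.4 CPM with MEKi.

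Mitochondria keep a ribosome of bacterial ancestry that translates the few messenger RNAs of mitochondrial DNA, all of which encode subunits of the respiratory chain and the ATP synthase. Its ribosomal RNAs come from mitochondrial DNA, while its proteins are made in the cytosol from nuclear genes and imported, so both genomes contribute to one particle. Some of these proteins descend from bacterial ribosomal proteins and others are specific to mitochondria. GABP (an ETS-domain factor), NRF1, YY1 and MYC are known regulators of nuclear genes for mitochondria, and ERK is known to phosphorylate several ETS-domain factors and to stabilise MYC protein.

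The 74 members comprised 24 small-subunit genes (15 with a bacterial homologue and 9 specific to mitochondria), 49 large-subunit genes (30 with a bacterial homologue and 19 specific to mitochondria) and Mrps36, whose product is known to belong to the oxoglutarate dehydrogenase complex. They lay on 17 chromosomes, with a median gene span of 7982 bp (789 to 121773 bp). Mean new RNA per member ranged from 3.16 to 124 CPM, with a median of 27.3 CPM. Counts followed gene span (Spearman's rho 0.68 across 74 genes) more than exonic length (rho 0.47), as a description across genes that are not independent replicates and share the same libraries. Per kilobase of gene span, the highest levels over all libraries were those of Mrps18b (12.7 CPM per kb), Mrps2 (12.2) and Mrpl12 (7.65), and the lowest those of Mrpl48 (0.519), Mrpl33 (0.627) and Mrpl23 (0.842), against a median of 3.25 CPM per kb. Per kilobase of exon, Mrps28 (146 CPM per kb), Mrps27 (59.2) and Mrps21 (41.2) were highest and Mrpl23 (1.39), Mrps26 (2.09) and Mrps17 (3.04) lowest. Exons of 30 members overlap exons of another gene, of a protein-coding gene for 20, and the strand setting of the counting is not given, so part of the counts of such members may belong to the neighbour.

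Promoter windows of RefSeq (GRCm38.p6, 250 bases before to 50 after the start) were at hand for 66 of the 74 members, not for Mrpl15, Mrpl13, Mrps28, Mrpl19, Mrpl54, Mrpl38, Mrps35 and Mrpl4. Below are 4 of them, for members on which the results turn: Mrps18b and Mrpl20, higher with 4OHT, Mrpl42, lower with 4OHT, and Mrpl52, for which PP1 and MEKi differed most. Capitals mark the ETS core CCGGAA (or TTCCGG, the same letters on the other strand), the NRF1 core GCATGCGC and the E-box CACGTG.
Mrps18b, chr17:35916391-35916690, minus strand: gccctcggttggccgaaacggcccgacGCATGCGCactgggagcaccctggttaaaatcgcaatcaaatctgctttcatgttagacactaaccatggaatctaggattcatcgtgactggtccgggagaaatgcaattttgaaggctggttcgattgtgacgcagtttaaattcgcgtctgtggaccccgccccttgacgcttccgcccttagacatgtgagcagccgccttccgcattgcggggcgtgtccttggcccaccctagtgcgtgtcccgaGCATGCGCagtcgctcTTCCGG
Mrpl20, chr4:155802628-155802927, plus strand: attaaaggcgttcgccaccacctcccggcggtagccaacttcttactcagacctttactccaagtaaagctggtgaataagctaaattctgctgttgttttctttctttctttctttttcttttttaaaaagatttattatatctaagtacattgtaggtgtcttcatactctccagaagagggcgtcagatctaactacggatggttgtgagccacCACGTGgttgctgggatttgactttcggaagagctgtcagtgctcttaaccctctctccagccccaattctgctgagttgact
Mrpl42, chr10:95501900-95502199, minus strand: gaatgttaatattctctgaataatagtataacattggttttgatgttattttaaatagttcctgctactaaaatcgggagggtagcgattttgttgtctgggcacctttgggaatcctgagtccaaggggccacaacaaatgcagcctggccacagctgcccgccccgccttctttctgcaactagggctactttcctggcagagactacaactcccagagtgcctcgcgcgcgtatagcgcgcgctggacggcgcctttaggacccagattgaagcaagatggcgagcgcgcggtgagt
Mrpl52, chr14:54426659-54426958, plus strand: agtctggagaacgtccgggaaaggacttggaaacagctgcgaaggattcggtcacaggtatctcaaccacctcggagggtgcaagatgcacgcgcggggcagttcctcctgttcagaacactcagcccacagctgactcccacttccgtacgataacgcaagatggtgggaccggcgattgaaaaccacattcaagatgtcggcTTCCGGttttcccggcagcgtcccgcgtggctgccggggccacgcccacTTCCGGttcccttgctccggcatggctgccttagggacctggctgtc

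In these windows Mrps18b held the NRF1 letters at 2 places and the ETS core at 1, Mrpl52 held the ETS core at 2, Mrpl20 held the E-box at 1 and Mrpl42 held none of the 3. Searched on both strands, CCGGAA stood in 38 of 66 member windows (57.6%), against 28.2% of 11322 tested genes with a window and 16.7% of 27025 genes with a window. The NRF1 core GCATGCGC stood in 8 (12.1%, against 5.56% of tested genes) and AAGATGG, a YY1 motif, in 13 (19.7%, against 7.83%). AAGATGG is not in capitals above, and it stands in the printed windows of Mrpl42 and Mrpl52. CCGGAAGT, which contains the ETS core, stood in 12 (18.2%, against 8.23%). The NFY letters CCAAT (39.4%, against 42.4%), the SP1 letters GGGCGG (48.5%, against 66.2%) and the E-box CACGTG (7.58%, against 11.4%) stood in a smaller share of members than of tested genes. CCGGAA was present in 7 of 14 members higher with 4OHT, in 3 of 6 that were lower and in 28 of 46 that were not called. A match of letters is a description of the window and not a bound site.

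Switching on RAF with 4OHT, without inhibitor, changed the new RNA of part of the family in both directions and left its sum close to that of DMSO cells. The summed new RNA of all members averaged 2738 ± 68.7 CPM in 4OHT cells (SD, n = 3), against 2652 ± 45.5 CPM in DMSO cells (SD, n = 2). Of 74 members, 14 were higher and 8 lower at an adjusted p under 0.05 (edgeR quasi-likelihood test, Benjamini-Hochberg over 14907 genes), against 25.7% of all tested genes higher and 26.3% lower. That is 29.7% of members against 52% of tested genes, so a smaller share of the family than of all genes was called. Exons of 9 of the 14 higher members and 3 of the 8 lower ones overlap exons of another gene, so their counts are uncertain. Among the 44 members without exon overlap, 5 were higher and 5 lower. The median log2 fold change was 0.02 over members and -0.02 over tested genes. These directions are relative to the typical gene: with scaling by library totals alone the median tested gene moved to -0.32 and the members' count turned to 0 higher and 17 lower. With that scaling 8.67% of all tested genes were higher and 32.4% lower. The 10 embryonic stem cell markers summed to between 3162 and 3609 CPM in 4OHT cells, against 3912 and 4241 CPM in DMSO cells. The sum of 7 primitive endoderm markers was between 9.26 and 15.4 CPM in 4OHT cells, against 17.3 and 17.5 CPM in DMSO cells, and that of the neural markers between 5.66 and 7.07 CPM in 4OHT cells, against 10.6 and 10.9 CPM in DMSO cells. The 4OHT libraries were below both DMSO libraries in all 3 sums, whose part in the results was not tested. Among endoderm markers, means were lower in 4OHT cells for Dab2 (1.86 against 7.07 CPM), Sox7 (0.410 against 1.67 CPM), Pdgfra and Sox17. They were higher for Gata4 (4.19 against 3.38 CPM), Foxa2 and, by little, Gata6. The neural fall lay mainly in Pax6 (5.04 against 8.62 CPM), with Sox1 and Olig2 lower too and Neurog2 higher near 0. The stem cell markers did not move together. Means were lower in 4OHT cells for Nanog (150 against 329 CPM), Tfcp2l1 (281 against 679 CPM), Esrrb, Tdgf1 and Fgf4. They were higher for Zfp42 (1134 against 717 CPM), Pou5f1 (247 against 159 CPM), Dppa5a, Utf1 and, by little, Sox2 (230 against 228 CPM). In RNA from whole cultures, fewer cells of a type and less RNA per cell cannot be told apart.

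Among small-subunit genes, 6 of 24 were higher in 4OHT cells and 3 lower. Mrps18b, counted as specific although it is related to a bacterial small-subunit protein, had 92.9, 95.7 and 93.8 CPM in 4OHT cells, against 63.3 and 73.2 CPM in DMSO cells. All 3 4OHT libraries lay above both DMSO libraries, and the log2 fold change was 0.46 ± 0.09 (SE; edgeR adjusted p = 0.00013). Mrps22, specific to the mitochondrial ribosome and mutated in some human mitochondrial diseases, had 50.1, 51.0 and 53.7 CPM in 4OHT cells, against 37.1 and 37.6 CPM in DMSO cells. The groups again did not overlap, at a log2 fold change of 0.47 ± 0.11 (edgeR adjusted p = 0.0010). Mrps25, another mitochondria-specific protein, had 30.7, 39.1 and 42.4 CPM in 4OHT cells, against 27.1 and 28.0 CPM in DMSO cells (log2 fold change 0.44 ± 0.12, edgeR adjusted p = 0.0049). Its 4OHT libraries spread widely but all exceeded DMSO, and 69.8% of its exonic length overlaps exons of Nr2c2, so its counts are uncertain. Mrps7 and Mrps18c, both with bacterial homologues, also rose, by log2 values of 0.48 ± 0.14 and 0.47 ± 0.15. The Mrps7 call was lost without DMSO clone b (edgeR adjusted p = 0.057) and the Mrps18c call without DMSO clone c (edgeR adjusted p = 0.058). Mrps11, whose bacterial homologue sits on the platform of the small subunit, completed the 6 at 0.33 ± 0.13.

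The small-subunit genes that fell were Mrps21, Mrps24 and Mrps35. Mrps35, specific to mitochondria, had 52.7, 55.7 and 55.4 CPM in 4OHT cells, against 70.7 and 69.3 CPM in DMSO cells. The ranges were well apart, and the log2 fold change was -0.36 ± 0.09 (edgeR adjusted p = 0.0017). Mrps21, which has a bacterial homologue, had 24.4, 26.4 and 27.2 CPM in 4OHT cells, against 35.0 and 39.1 CPM in DMSO cells (-0.51 ± 0.13, edgeR adjusted p = 0.0023). Every 4OHT library of Mrps21 was below both DMSO libraries, and its adjusted p was 0.054 without DMSO clone c. Mrps24, with a bacterial homologue, had 13.0, 13.1 and 16.3 CPM in 4OHT cells, against 19.7 and 19.4 CPM in DMSO cells (-0.47 ± 0.15, edgeR adjusted p = 0.011). That call did not hold without DMSO clone b, DMSO clone c or 4OHT clone a, where the edgeR adjusted p was between 0.064 and 0.080.

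Among large-subunit genes, 8 of 49 were higher in 4OHT cells and 5 lower. Mrpl20, whose bacterial homologue is needed to assemble the large subunit, had 59.9, 60.7 and 62.9 CPM in 4OHT cells, against 36.4 and 39.0 CPM in DMSO cells. This was the largest rise among members, at a log2 fold change of 0.70 ± 0.10 (1.62-fold, edgeR adjusted p = 1.9e-06), and its 3 4OHT libraries were close together. With scaling by library totals alone the value was 0.40 (edgeR adjusted p = 0.089). Mrpl50, specific to mitochondria, had 75.9, 76.0 and 78.2 CPM in 4OHT cells, against 54.9 and 56.3 CPM in DMSO cells, which did not overlap (0.46 ± 0.10, edgeR adjusted p = 0.00065). The other risers all have bacterial homologues: Mrpl24 (0.43 ± 0.13), Mrpl9 (0.37 ± 0.12), Mrpl32 (0.34 ± 0.12), Mrpl18 (0.33 ± 0.10), Mrpl35 (0.32 ± 0.12) and Mrpl3 (0.26 ± 0.09). Single libraries decided Mrpl24 (edgeR adjusted p = 0.060 without DMSO clone b), Mrpl9 (0.095 without DMSO clone b and 0.071 without 4OHT clone c), Mrpl32 (0.18 without DMSO clone c and 0.056 without 4OHT clone a) and Mrpl3 (0.078 without DMSO clone c).

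Of the large-subunit genes that fell, Mrpl42, specific to mitochondria, had 43.3, 51.7 and 42.3 CPM in 4OHT cells, against 62.0 and 70.6 CPM in DMSO cells. No 4OHT library reached a DMSO library, and the log2 fold change was -0.54 ± 0.10 (edgeR adjusted p = 0.00012). Mrpl15, which has a bacterial homologue, had 84.2, 76.9 and 76.5 CPM in 4OHT cells, against 102 and 115 CPM in DMSO cells (-0.45 ± 0.10, edgeR adjusted p = 0.00033). It too was lower in every 4OHT library. Mrpl23, whose bacterial homologue lines the exit of the peptide tunnel, had the largest fall, with 5.16, 5.52 and 5.74 CPM in 4OHT cells, against 7.73 and 9.91 CPM in DMSO cells (-0.69 ± 0.20, edgeR adjusted p = 0.0058). Its level was low, and the call depended on 1 library, with an edgeR adjusted p of 0.15 without DMSO clone c. Mrpl58, a peptidyl-tRNA hydrolase that frees stalled mitochondrial ribosomes, fell by 0.47 and Mrpl27, with a bacterial homologue, by 0.36 on the log2 scale. The Mrpl58 call was lost without DMSO clone b, DMSO clone c or 4OHT clone a (edgeR adjusted p 0.057 to 0.090), and the Mrpl27 call without any 1 of 11 libraries (0.053 to 0.25). By class, the calls higher and lower were 3 and 2 of 15 small-subunit genes with a bacterial homologue, 3 and 1 of 9 specific ones, 7 and 3 of 30 large-subunit genes with a homologue and 1 and 2 of 19 specific ones.

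Other members with known roles were not called in 4OHT against DMSO. Mrps12, whose bacterial homologue guards decoding accuracy, had 5.96, 7.76 and 6.91 CPM in 4OHT cells, against 7.24 and 8.43 CPM in DMSO cells, with overlapping ranges (-0.20 ± 0.23, edgeR adjusted p = 0.48). Mrps16, with a bacterial homologue, had 12.6, 12.2 and 12.5 CPM in 4OHT cells, against 11.5 and 13.3 CPM in DMSO cells (0.01 ± 0.15, edgeR adjusted p = 0.97). Mrps18a, the relative of Mrps18b and Mrps18c that sits in the large subunit, had 26.2, 28.1 and 30.9 CPM in 4OHT cells, against 26.0 and 34.1 CPM in DMSO cells (-0.08 ± 0.14, edgeR adjusted p = 0.67), again overlapping. Mrpl12, the stalk protein that also binds the mitochondrial RNA polymerase, had 24.8, 39.0 and 36.1 CPM in 4OHT cells, against 31.4 and 37.7 CPM in DMSO cells (-0.07 ± 0.16, edgeR adjusted p = 0.74). Mrpl11, another protein of the stalk base, took -0.24 ± 0.17 (edgeR adjusted p = 0.25) and Mrpl44, specific to mitochondria, 0.32 ± 0.14 (edgeR adjusted p = 0.055), with all 4OHT libraries of Mrpl44 above DMSO. The 95% intervals of these differences reached between -0.65 and 0.58 on the log2 scale, so a change of the size called in other members was not excluded for them.

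**Figure D1:**
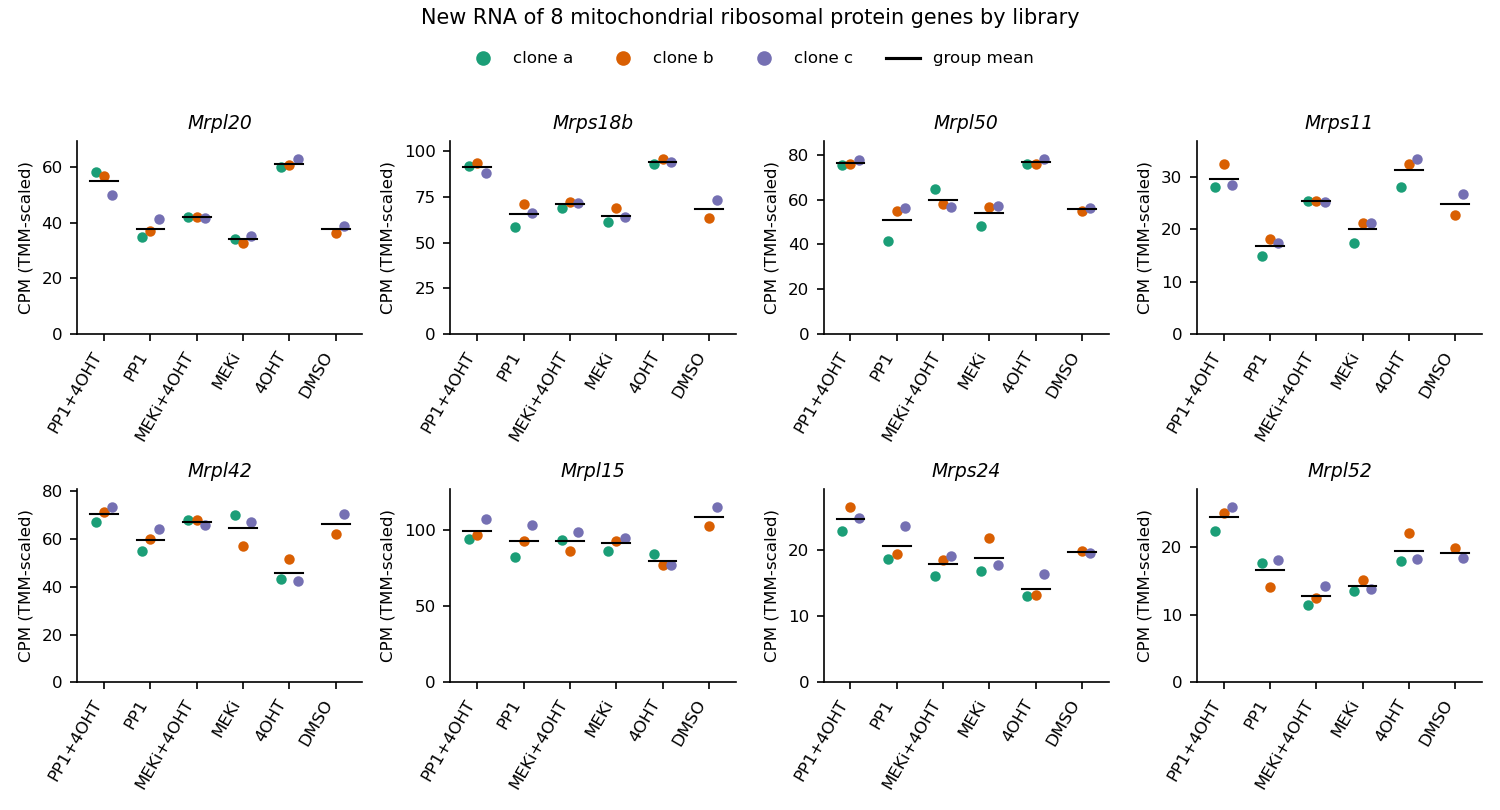
New RNA of 8 members, in TMM-scaled CPM on a linear axis from 0, with a point per library coloured by clone and a bar at the mean of each of the 6 groups. Mrpl20, Mrps18b and Mrpl50 are higher in 4OHT than in DMSO cells and stay below that level with MEKi and 4OHT, while Mrpl42, Mrpl15 and Mrps24 are lower in 4OHT cells than in the other groups' means; with scaling by library totals alone the calls higher with 4OHT are lost.

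With PP1 present, 4OHT raised 22 members past the threshold and lowered 0. The summed new RNA of all members averaged 2859 ± 55.0 CPM with PP1 and 4OHT, against 2472 ± 91.7 CPM with PP1 (SD, n = 3 each), and the 3 sums with 4OHT (2820 to 2922 CPM) all exceeded those without (2370 to 2547 CPM). Those calls (edgeR adjusted p under 0.05) are 29.7% of 74 members, against 31.3% of tested genes called, 18.4% higher and 12.8% lower. At an unadjusted p under 0.05, 30 of 74 members were past the threshold in either direction, against 6195 of 14907 tested genes. DESeq2 called 20 members higher and 2 lower. The median log2 fold change was 0.21 over members, against 0.00 over tested genes, and 64 of 74 members had a positive value, while the other 10 reached down to -0.51. Primitive endoderm markers summed to between 9.62 and 13.9 CPM with PP1 and 4OHT, against 18.4 to 25.5 CPM with PP1, while embryonic stem cell markers overlapped in their sum, at 3959 to 4212 CPM with PP1 and 4OHT, against 3877 to 4528 CPM with PP1. Single stem cell markers moved both ways. Means were higher with PP1 and 4OHT for Zfp42 (901 against 630 CPM), Esrrb (1333 against 1136 CPM), Pou5f1 and, by little, Sox2. The other markers had lower means, among them Tfcp2l1 (494 against 806 CPM) and Nanog (246 against 339 CPM). Their part in the results was not tested. The balance stayed on the higher side with the other scalings, at 20 higher and 2 lower with DESeq2 size factors, 17 and 0 with library totals, and 15 and 2 with library totals after leaving out the high-count loci. In the same order all tested genes gave 16.5% higher and 13.9% lower, 13.7% and 4.19%, and 12.7% and 17.1%.

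The large subunit held 17 of these 22 rises and the small subunit 5. Large-subunit genes with a bacterial homologue had 14 called of 30, against 3 of 19 specific to mitochondria, 3 of 15 small-subunit genes with a homologue and 2 of 9 specific ones. The class medians were closer, at log2 values of 0.24, 0.21, 0.18 and 0.22, and the difference between classes was not tested. The sum over large-subunit genes was 1731, 1750 and 1844 CPM with PP1 and 4OHT, against 1452, 1505 and 1552 CPM with PP1, and that over small-subunit genes averaged 1072 ± 7.34 CPM with PP1 and 4OHT, against 960 ± 42.5 CPM with PP1 (SD, n = 3 each).

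In the small subunit, Mrps11 had 28.1, 32.4 and 28.3 CPM with PP1 and 4OHT, against 14.8, 18.1 and 17.4 CPM with PP1. The groups were far apart, and the log2 fold change of 0.80 ± 0.12 was the largest among members (1.74-fold, edgeR adjusted p = 3.2e-05), with 7.97% of its exonic length shared with Mrpl46. Mrps18b had 91.9, 93.6 and 88.0 CPM with PP1 and 4OHT, against 58.7, 71.2 and 66.2 CPM with PP1 (0.47 ± 0.08, edgeR adjusted p = 0.00013). All 3 of its libraries with 4OHT were above those without. Mrps25 (0.53 ± 0.12), Mrps10 (0.43 ± 0.09) and Mrps5 (0.25 ± 0.08) were the other small-subunit rises.

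In the large subunit, Mrpl9, with a bacterial homologue, had 37.0, 37.7 and 36.3 CPM with PP1 and 4OHT, against 22.7, 23.6 and 26.3 CPM with PP1. The values with 4OHT were tight and above every PP1 library (0.60 ± 0.12, edgeR adjusted p = 0.00041). Mrpl20 had 58.1, 56.8 and 49.9 CPM with PP1 and 4OHT, against 35.0, 36.9 and 41.4 CPM with PP1 (0.53 ± 0.09, edgeR adjusted p = 8.8e-05), again without overlap. Mrpl50 had 75.2, 75.9 and 77.4 CPM with PP1 and 4OHT, against 41.6, 55.0 and 56.1 CPM with PP1 (0.56 ± 0.10, edgeR adjusted p = 0.00012). Among PP1 libraries clone a was lowest for Mrpl50, and the groups stayed apart. Mrpl52, specific to mitochondria, had 22.3, 25.1 and 25.9 CPM with PP1 and 4OHT, against 17.6, 14.1 and 18.1 CPM with PP1 (0.57 ± 0.13, edgeR adjusted p = 0.0023). Mrpl32 (0.53 ± 0.12), Mrpl22 (0.51 ± 0.11) and Mrpl13 (0.51 ± 0.09) rose by about as much, and each of these 10 members with the largest rises stayed called when any 1 library was left out. The smaller rises included Mrpl12 at 0.42 ± 0.14, a call lost without any 1 of 12 libraries (edgeR adjusted p 0.051 to 0.19). Without PP1 with 4OHT clone b the count of higher members was 14.

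**Figure D2:**
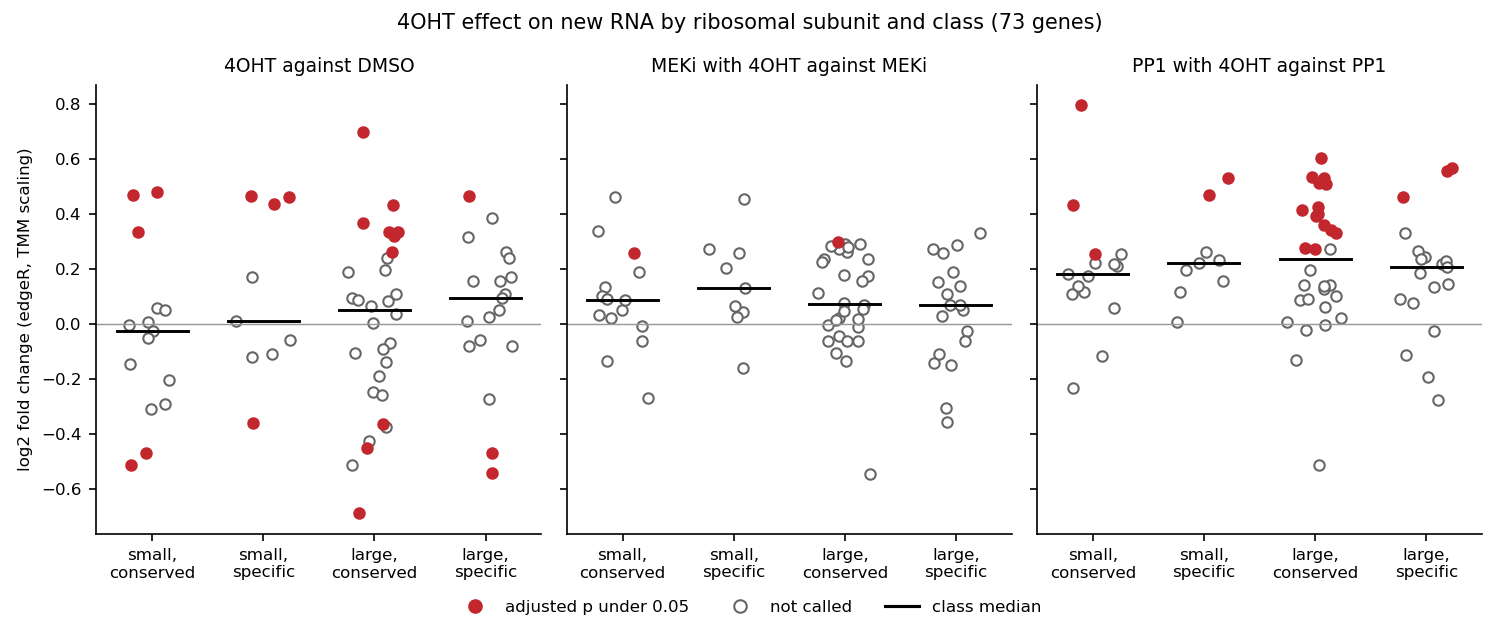
Log2 fold change (edgeR, TMM scaling) of 73 members, Mrps36 left out, by subunit and class (conserved, with a bacterial homologue; specific, mitochondria only) in the 3 comparisons of 4OHT against the matching cells without it; filled points are called and lines are class medians. Calls run both ways in 4OHT against DMSO, are 2 in number with MEKi, and are all higher with PP1. With scaling by library totals alone those of 4OHT against DMSO turn to 17 lower and 0 higher, against 32.4% and 8.67% of all tested genes.

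With MEK inhibited, 4OHT changed 2 of these genes past the threshold. The summed new RNA averaged 2560 ± 66.4 CPM with MEKi and 4OHT, against 2445 ± 90.1 CPM with MEKi (SD, n = 3 each). Of 74 members, 2 were higher and 0 lower (edgeR adjusted p under 0.05), against 7.65% of tested genes higher and 7.03% lower. At an unadjusted p under 0.05 there were 18 members, against 4216 of 14907 tested genes. DESeq2 called 2 members higher and 1 lower. The median log2 fold change was 0.07 over members and 0.00 over tested genes. Embryonic stem cell markers summed to between 3551 and 3957 CPM with MEKi and 4OHT, against 4068 to 4232 CPM with MEKi. Among them Nanog, Fgf4 and, by little, Zfp42 had higher means with MEKi and 4OHT, and the other markers lower ones. Neural markers summed to between 4.75 and 5.79 CPM with MEKi and 4OHT, against 9.12 to 11.8 CPM with MEKi. That fall lay mainly in Pax6 (1.99 against 6.8 CPM), while the low Olig2 had a higher mean with MEKi and 4OHT. The part of these markers in the results was not tested. Mrpl20 had 42.0, 42.1 and 41.6 CPM with MEKi and 4OHT, against 34.1, 32.5 and 35.3 CPM with MEKi (0.30 ± 0.09, edgeR adjusted p = 0.027). Mrps5, with a bacterial homologue, had 84.0, 78.8 and 88.0 CPM with MEKi and 4OHT, against 66.4, 73.9 and 69.7 CPM with MEKi (0.26 ± 0.08, edgeR adjusted p = 0.030). Both were higher in every library with 4OHT, and both calls were lost when single libraries of these groups were left out (Mrpl20 in 6 cases, edgeR adjusted p 0.052 to 0.081, Mrps5 in 4, 0.087 to 0.14). Without MEKi clone a, MEKi with 4OHT clone a or MEKi with 4OHT clone c the count was 0. MEKi clone a and MEKi with 4OHT clone b had the highest background over long genes, and without both the count was 0 too.

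The comparisons of 4OHT without inhibitor and with PP1 share no library, so their calls can be set side by side. Of the 14 members higher in 4OHT against DMSO, 9 were also higher in PP1 with 4OHT against PP1, which is 64.3% of the first list and 40.9% of the 22 in the second. Those 9 were Mrps11, Mrps18b, Mrps25, Mrpl9, Mrpl18, Mrpl20, Mrpl32, Mrpl35 and Mrpl50. Among all tested genes higher in 4OHT against DMSO, 49.4% were also higher in PP1 with 4OHT against PP1. The shared genes were 68.9% of all tested genes higher in PP1 with 4OHT against PP1, a larger share than the 40.9% among members. Of the members that fell, 0 of 8 were called lower with PP1 and 4OHT, against 35.8% of all genes lower in 4OHT cells, and 7 of the 8 had positive values there (median log2 fold change 0.12). Across the 74 members the 2 sets of log2 fold changes had a Spearman's rho of 0.46, against 0.51 across all tested genes, given as a description over genes that share libraries. Whether the same members respond was not tested beyond these counts.

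**Figure D3:**
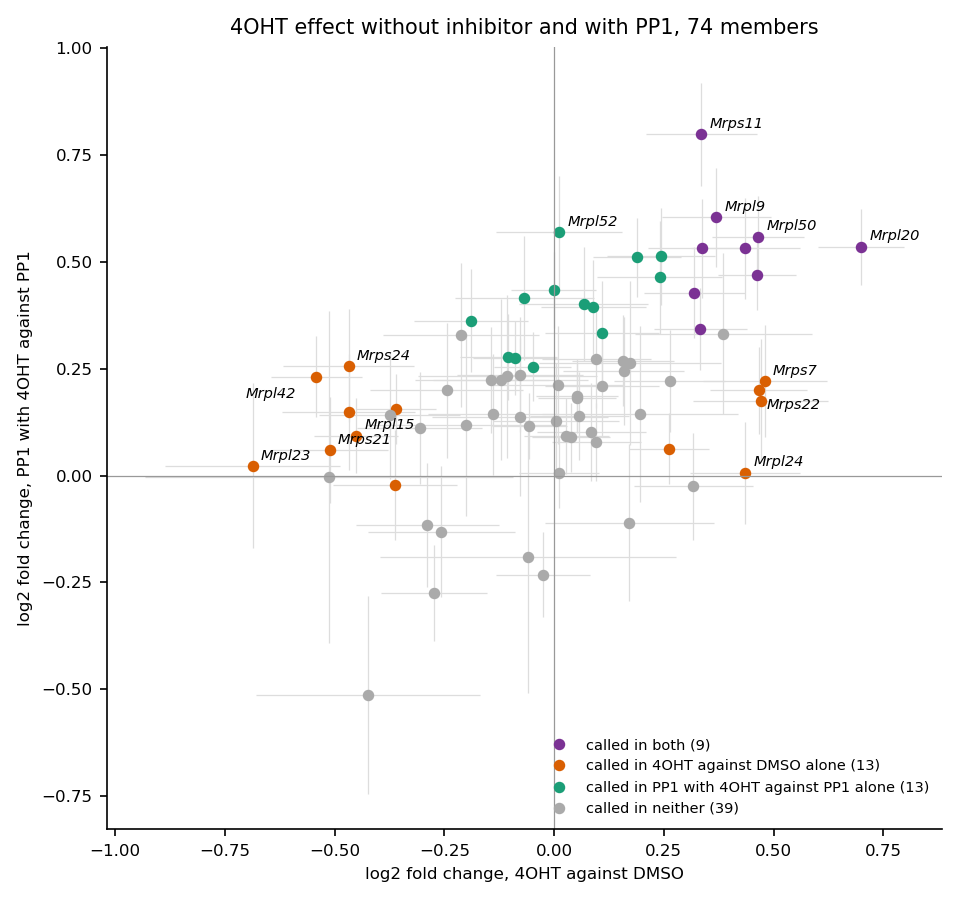
Log2 fold change of the 74 members in 4OHT against DMSO (x) and in PP1 with 4OHT against PP1 (y), edgeR with TMM scaling, with standard errors as grey bars and colours for the calls. The 9 members called in both lie at upper right, and the 8 that were lower in 4OHT against DMSO lie between -0.02 and 0.26 on the y axis; scaling by library totals alone lowers the x values, with the median tested gene at -0.32.

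Whether the 4OHT effect differed with an inhibitor was tested by the interaction of both treatments. These tests share their 4OHT and DMSO libraries with the comparison of 4OHT against DMSO, so they are not independent of it. With MEKi minus without inhibitor, 8 members had a positive and 5 a negative difference (edgeR adjusted p under 0.05), against 40.4% of tested genes, 21.1% positive and 19.3% negative. The split was 6 and 8 with DESeq2 size factors and 28 and 0 with scaling by library totals alone. With library totals the median tested gene was at -0.32 in 4OHT against DMSO and 0.17 in MEKi with 4OHT against MEKi. The typical gene thus shifted the same way, and the share of all tested genes is not given for these 2 scalings. Mrpl42 had the smallest adjusted p, at 0.59 ± 0.14 (edgeR adjusted p = 0.0014), followed by Mrpl15 at 0.47 ± 0.13, Mrps35 at 0.38 ± 0.12 and Mrps21 at 0.56 ± 0.18. Mrpl24, at -0.54 ± 0.17, was the first of the negative differences. Without DMSO clone c the number of positive differences was 2. With PP1 minus without inhibitor, 10 members had a positive and 0 a negative difference, against 15.1% and 11.4% of tested genes. At an unadjusted p under 0.05 there were 20 members, against 5563 of 14907 tested genes. DESeq2 gave 8 positive and 1 negative. Scaling by library totals alone gave 27 called, where the median tested gene was at -0.32 in 4OHT against DMSO and 0.12 in PP1 with 4OHT against PP1. Mrpl42 was again first, at 0.77 ± 0.14 (edgeR adjusted p = 0.00023), followed by Mrps35 at 0.52 ± 0.12, Mrpl15 at 0.54 ± 0.13, Mrps24 at 0.72 ± 0.20 and Mrps10 at 0.44 ± 0.13. The count was 5 without DMSO clone b, DMSO clone c or PP1 with 4OHT clone a, and 6 without 4OHT clone a or PP1 with 4OHT clone b. With PP1 minus with MEKi, Mrpl52 (0.72 ± 0.19), Mrpl17 (0.41 ± 0.12) and Mrpl50 (0.41 ± 0.13) had positive differences and 0 members negative ones. The shares of tested genes were 7.41% and 4.86%. At an unadjusted p under 0.05 there were 10 members, against 3592 of 14907 tested genes. DESeq2 gave 3 positive differences too. That count was 0 with scaling by library totals alone and 1 without any 1 of 9 libraries: DMSO clone b or c, MEKi clone b, 4OHT clone c, MEKi with 4OHT clone a or c, or PP1 with 4OHT clone a, b or c.

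The inhibitors without 4OHT gave 0 called members in MEKi against DMSO (edgeR), against 0.0805% of tested genes higher and 0.449% lower. At an unadjusted p under 0.05 there were 14 members, against 1685 of 14907 tested genes. The members' median log2 fold change was -0.11. PP1 against DMSO also gave 0 called members (0.0805% of tested genes higher and 0.161% lower), with 11 at an unadjusted p under 0.05 and a median of -0.08. Among all tested genes 1611 had an unadjusted p under 0.05 there. PP1 against MEKi gave 0 called members (0.0738% of tested genes higher and 0% lower). At an unadjusted p under 0.05 there were 0 members, against 606 of all tested genes. DESeq2 called 0 members in each of the 3.

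Within 4OHT-treated cells, MEKi lowered more members than it raised relative to the typical gene, a balance that turned round with scaling by library totals alone. The 4OHT libraries are those of the comparison against DMSO, so the values stand side by side and are not independent. MEKi with 4OHT against 4OHT gave 10 members higher (13.5%) and 23 lower (31.1%), at an edgeR adjusted p under 0.05. Of all tested genes 56.8% were called, 28.4% in each direction. The members' lower share was thus near that of all tested genes and their higher share below it. The median log2 fold change was -0.08 over members and 0.06 over tested genes. The members' split turned to 26 higher and 0 lower with scaling by library totals alone, where the median tested gene moved to 0.40. The falls included Mrps25, with 23.8, 22.2 and 25.7 CPM with MEKi and 4OHT, against 30.7, 39.1 and 42.4 CPM with 4OHT (-0.64 ± 0.11, edgeR adjusted p = 3.2e-05). Mrpl57, specific to mitochondria and of low level, had 7.03, 7.59 and 6.27 CPM with MEKi and 4OHT, against 9.14, 11.9 and 11.8 CPM with 4OHT (-0.64 ± 0.19, edgeR adjusted p = 0.0051). In both genes every library with MEKi was below every library without. Mrpl24 (-0.61 ± 0.11), Mrpl52 (-0.59 ± 0.13) and Mrpl20 (-0.55 ± 0.09) fell by similar amounts, and Mrpl42 had the largest rise, with 68.0, 68.0 and 65.7 CPM with MEKi and 4OHT, against 43.3, 51.7 and 42.3 CPM with 4OHT (0.56 ± 0.09, edgeR adjusted p = 2e-05). The falls of Mrpl20, Mrpl24 and Mrps25 kept a negative value with library totals alone but were no longer called. Mrpl57 and Mrpl52 were not called with that scaling either (edgeR adjusted p = 0.28 and 0.2). Without 4OHT clone a or clone c the count of higher members was 4, and without MEKi with 4OHT clone b or clone c it was 5.

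PP1 within 4OHT-treated cells gave 12 members higher and 2 lower than 4OHT alone (edgeR adjusted p under 0.05), against 41.8% of tested genes called, 21.4% higher and 20.5% lower. Scaling by library totals alone gave 23 members higher and 0 lower, and the share of all tested genes is not given for it. Mrps24 had 22.8, 26.4 and 24.8 CPM with PP1 and 4OHT, against 13.0, 13.1 and 16.3 CPM with 4OHT, the largest of these rises (0.80 ± 0.14, edgeR adjusted p = 4.1e-05). Mrpl42 had 67.1, 71.0 and 73.3 CPM with PP1 and 4OHT, against 43.3, 51.7 and 42.3 CPM with 4OHT (0.63 ± 0.10, edgeR adjusted p = 9.5e-06). The groups did not overlap in either gene, and both stayed called without any 1 library, as did Mrpl58 (0.60 ± 0.14). Mrps2 (0.51 ± 0.15) and Mrpl11 (0.47 ± 0.16) did not, with edgeR adjusted p values up to 0.11 and 0.16. Mrpl24 (-0.47 ± 0.11) and Mrps22 (-0.30 ± 0.10) were lower with PP1, and the Mrps22 call was lost without PP1 with 4OHT clone a or clone c (edgeR adjusted p = 0.051 and 0.059). The count of higher members was 6 without 4OHT clone a, and that of all called members 9 without 4OHT clone a or without PP1 with 4OHT clone c.

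Between the inhibitors, both with 4OHT, PP1 left 17 members (23.0%) higher than MEKi and 0 lower (edgeR adjusted p under 0.05). Of tested genes 15.2% were higher and 13% lower. At an unadjusted p under 0.05 there were 24 members, against 5770 of 14907 tested genes. DESeq2 called 16 members higher and 0 lower. The median log2 fold change was 0.16 over members and -0.02 over tested genes, and with scaling by library totals alone 1 member was higher and 0 lower. Mrpl52 differed most, with 22.3, 25.1 and 25.9 CPM with PP1 and 4OHT, against 11.5, 12.5 and 14.3 CPM with MEKi and 4OHT (0.93 ± 0.13, 1.91-fold, edgeR adjusted p = 6.4e-06). Its groups were far apart, and the call held without any 1 library. Mrpl57 (0.61 ± 0.18), Mrps24 (0.47 ± 0.13), Mrpl19 (0.46 ± 0.11) and Mrpl12 (0.44 ± 0.14) followed, of which Mrpl19 held without any 1 library. The calls of Mrpl57, Mrps24 and Mrpl12 were lost in 2, 2 and 3 such cases (edgeR adjusted p up to 0.071, 0.060 and 0.13), and part of the exons of Mrpl19 overlaps Gcfc2.

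**Figure D4:**
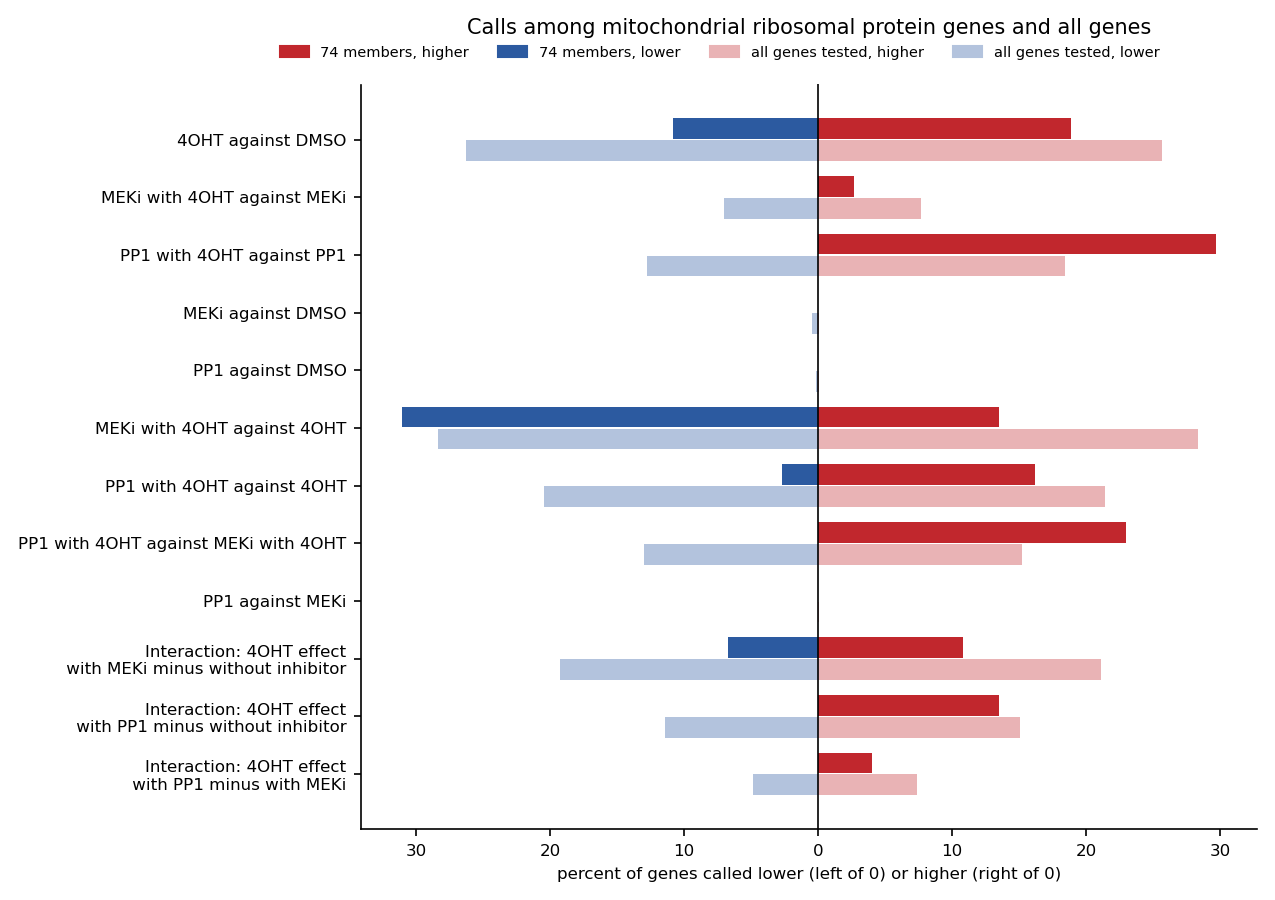
Percent of the 74 members (dark bars) and of all 14907 tested genes (pale bars) called higher, to the right of 0, or lower, to the left, in 12 comparisons (edgeR adjusted p under 0.05, TMM scaling). Members exceed all genes on the higher side in PP1 with 4OHT against PP1 (29.7% against 18.4%) and against MEKi with 4OHT (23.0% against 15.2%). With scaling by library totals alone the latter has 1 member higher. In MEKi with 4OHT against 4OHT the lower shares are near each other (31.1% of members, 28.4% of all genes) and fewer members are higher (13.5% against 28.4%). There scaling by library totals alone turns the split to 26 higher and 0 lower.

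Genes that act beside the ribosomal proteins moved in several ways with 4OHT, and their counts are read against the shares of all tested genes. Those shares were 25.7% higher and 26.3% lower in 4OHT against DMSO, and 18.4% and 12.8% in PP1 with 4OHT against PP1. In MEKi with 4OHT against MEKi they were 7.65% and 7.03%. With scaling by library totals alone they were 8.67% and 32.4% in 4OHT against DMSO, and 13.7% and 4.19% in PP1 with 4OHT against PP1. Of 6 proteins of the mitochondrial ribosome with other symbols, 1 was higher in 4OHT against DMSO, Ptcd3 (log2 fold change 0.56 ± 0.07), and 3 in PP1 with 4OHT against PP1. With scaling by library totals alone these counts were 0 and 1, and Ptcd3 took 0.26 (edgeR adjusted p = 0.22). Of 17 tested mitochondrial tRNA synthetases, which charge the tRNAs used by this ribosome, 1 was higher and 12 lower in 4OHT against DMSO (median -0.56), and with scaling by library totals alone 0 and 12. Nars2 (-1.39), Cars2 (-0.93) and Pars2 (-0.82) had the largest falls, and Yars2 (0.33) was the rise. In PP1 with 4OHT against PP1, 3 synthetases were higher and 1 lower, and 2 and 0 with scaling by library totals alone. Library totals after leaving out the high-count loci gave 2 and 7 of 16 tested, against 12.7% and 17.1% of all tested genes. In MEKi with 4OHT against MEKi 2 synthetases were higher and 2 lower.

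Of 38 mitochondrial translation and ribosome assembly factors, 7 were higher and 14 lower in 4OHT against DMSO, with Elac2 (0.81) and Trmt10c (0.79), both enzymes of mitochondrial tRNA processing, at one end and Rmnd1 (-1.39) and Nsun3 (-1.31), a methyltransferase of mitochondrial tRNA, at the other, and 2 and 15 with scaling by library totals alone. That is 18.4% of the factors higher and 36.8% lower, on the side of falls relative to all tested genes. The same factors gave 10 higher and 2 lower in PP1 with 4OHT against PP1, and 2 higher and 1 lower in MEKi with 4OHT against MEKi. Of 13 genes of mitochondrial DNA maintenance and transcription, 4 were higher and 5 lower in 4OHT against DMSO, or 30.8% and 38.5% (1 and 5 with scaling by library totals alone). In PP1 with 4OHT against PP1 they gave 4 and 1, and in MEKi with 4OHT against MEKi 1 and 0. With 4OHT against DMSO, Tfb2m (0.59), the transcription factor that opens mitochondrial promoters, and Twnk (0.71), the helicase, rose, while Tfb1m (-1.28), which methylates the small ribosomal RNA, fell. The Tfb2m call was lost with scaling by library totals alone (0.29, edgeR adjusted p = 0.30). Of 12 regulators of nuclear genes for mitochondria, 7 were higher (58.3%) and 3 lower (25%) in 4OHT against DMSO, and 2 higher, Myc and Yy1, and 4 lower with scaling by library totals alone. Myc (1.47), Yy1 (0.91) and Nrf1 (0.73) were among the rises, of which Nrf1 was lost with library totals (0.44, edgeR adjusted p = 0.10), and Mycn (-1.15) among the falls. The 12 gave 6 higher and 2 lower in PP1 with 4OHT against PP1, and 1 and 3 in MEKi with 4OHT against MEKi.

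The 73 tested subunits of oxidative phosphorylation, the complexes that hold the products of the mitochondrial ribosome, gave 11 higher and 10 lower in 4OHT against DMSO (15.1% and 13.7%, below the 25.7% and 26.3% of all tested genes; 0 and 17 with library totals), 17 and 1 in PP1 with 4OHT against PP1, and 8 and 0 in MEKi with 4OHT against MEKi. The 78 tested cytosolic ribosomal protein genes gave 22 higher and 0 lower in 4OHT against DMSO (28.2% higher, near the 25.7% of all tested genes; median 0.28; 0 and 0 with library totals), 20 and 1 in PP1 with 4OHT against PP1, and 1 and 0 in MEKi with 4OHT against MEKi. With library totals the shares of all tested genes in 4OHT against DMSO were 8.67% higher and 32.4% lower. The difference between cytosolic and mitochondrial ribosomal protein genes was not tested.

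**Figure D5:**
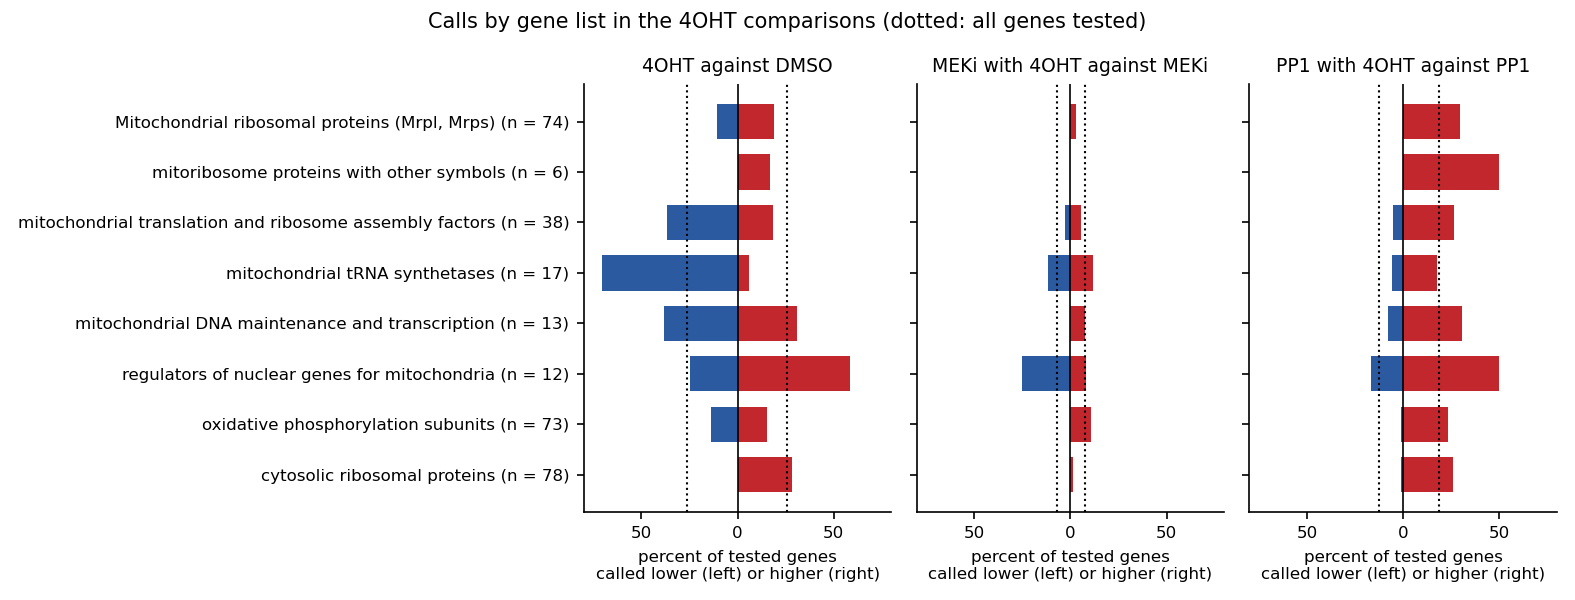
Percent of the tested genes of 8 lists called higher (right of 0) or lower (left of 0) in the 3 comparisons of 4OHT against the matching cells without it, edgeR with TMM scaling, with dotted lines at the shares of all tested genes. The synthetases reach 70.6% lower in 4OHT against DMSO, while the mitochondrial ribosomal proteins stay inside both dotted lines there. With PP1 the mitochondrial ribosomal proteins pass the higher line (29.7%). So do the other lists, at 23.3% to 50%, except the synthetases (17.6%). With scaling by library totals alone the members of 4OHT against DMSO turn to 17 lower, where 32.4% of all tested genes are lower.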

How the data were processed

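RNA labelled with ethynyl uridine was captured and sequenced from 17 libraries in 6 groups, taken from the labels' treatments. The authors deposited a table of raw counts per gene. Per the submitters' processing notes STAR and featureCounts were used with genome build mm10; versions, annotation, feature type, strand and multimapping are not stated there. Members and gene lists were chosen with earlier results of these data known.

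Counts were tested with edgeR 4.0.16 (R 4.3.3; quasi-likelihood, TMM, filterByExpr by group) in 1 fit of 17 libraries with 1 term per group and 11 residual degrees of freedom, on 14907 of 25899 genes, with Benjamini-Hochberg adjustment over all of them and calls at 0.05. Standard errors (SE) are the log2 fold change divided by the square root of F. The test was tried on simulated data. Totals of 5239690 to 11093390 counts set the precision, and differences between libraries beyond counting error enter the standard errors. Each of 9 comparisons of groups and 3 interactions was repeated with other scalings, DESeq2 1.42.0, other filters, clone as a block and libraries left out.

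Gene positions and overlaps come from GENCODE vM21 (mm10), matched by symbol, and promoter windows from RefSeq (GRCm38.p6). Members named with values are the largest called changes with the same sign in each clone letter that the compared groups share (up to 10 each way in 4OHT comparisons, 5 in others, and the 5 of smallest adjusted p in interactions), 11 members of known role, and the highest and lowest per exonic length; further called members are given by value. Clone letters were shared between groups. Deviations of libraries with the same letter had a mean correlation of 0.0859 (16 of 40 pairs over 0.1). For different letters it was -0.0425 (8 of 80 pairs over 0.1). Clone was not used as a block in the main test but in a repeat of it.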

Additional observations from a re-analysis of the deposited data

Results flagged for a closer look

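For part of the members the 4OHT effect differed with and without an inhibitor, by a test of the difference itself (edgeR interaction, adjusted p under 0.05 over all tested genes). With MEKi minus without inhibitor 13 members differed, which is 17.6% of them, against 40.4% of all tested genes. Mrpl42 (0.59), Mrps21 (0.56), Mrpl15 (0.47) and Mrps35 (0.38) had positive log2 differences and Mrpl24 (-0.54) a negative one. Of these 5, the call of Mrpl42 held when any 1 library was left out. Mrpl15 was lost without DMSO clone c (adjusted p = 0.067), Mrps21 and Mrps35 without 2 libraries each (up to 0.10 and 0.060), and Mrpl24 without DMSO clone b (0.055).

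With PP1 minus without inhibitor 10 members differed, which is 13.5% of them, against 26.5% of all tested genes. Among them were Mrpl42 (0.77), Mrps24 (0.72), Mrpl15 (0.54), Mrps35 (0.52) and Mrps10 (0.44), all positive. Mrpl42 and Mrps35 held without any 1 library. Mrpl15 was lost without DMSO clone c (edgeR adjusted p = 0.054), Mrps24 without DMSO clone b (0.052) and Mrps10 without any 1 of 5 libraries (up to 0.11). DMSO has 2 libraries, so each of them carries much of the contrast.

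With PP1 minus with MEKi 3 members differed, which is 4.05% of them, against 12.3% of all tested genes, and 0 with scaling by library totals alone. They were Mrpl52 (0.72), Mrpl17 (0.41) and Mrpl50 (0.41). Mrpl52 was lost without PP1 clone b or MEKi with 4OHT clone a (edgeR adjusted p = 0.058 and 0.057), and Mrpl17 and Mrpl50 without any 1 of 10 and 12 libraries.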

How the results depend on the processing

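With scaling by library totals alone the members called (higher and lower) turned to 17 (0 and 17) in 4OHT against DMSO and 26 (26 and 0) in MEKi with 4OHT against 4OHT, and were 23 in PP1 with 4OHT against 4OHT, 1 in PP1 with 4OHT against MEKi with 4OHT, and 28, 27 and 0 in the interactions (MEKi, PP1, PP1 minus MEKi). Leaving out the 14 high-count loci as well, chosen after seeing the data, gave 30 (2 and 28), 35 (32 and 3), 30, and interactions of 28, 23 and 1, with 5 in MEKi with 4OHT against MEKi. DESeq2 size factors and DESeq2 turned the MEKi interaction to 14 (6 and 8) and 13 (5 and 8). Mrpl3 in 4OHT against DMSO took a value of -0.033 with library totals. The cause of these changes was not tested. In 4OHT against DMSO all tested genes gave 8.67% higher and 32.4% lower with library totals, and 15.2% and 38.0% without the high-count loci.

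MEKi with 4OHT against MEKi gave 1 (0 and 1) with the libraries compared alone, 0 where a call also needed a log2 change of 0.32, 0 without the 2 libraries of highest background and 9 without the 3 with the largest share in high-count loci, the last 2 chosen after seeing the data. MEKi with 4OHT against 4OHT gave 21 with that minimum change. Without the 2 libraries of highest background the MEKi interaction gave 7, and without the 3 others the PP1 interaction 16. The PP1 minus MEKi interaction gave 1 with no filter, with the libraries compared alone and without those 3.

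With clone as a replicate block, 25 members were called in 4OHT against DMSO, 23 in PP1 with 4OHT against PP1, 5 in MEKi with 4OHT against MEKi and 5 in the PP1 minus MEKi interaction; the other counts stayed within 1.5 times. Leaving out each library in turn gave 15 to 25 (4OHT against DMSO), 15 to 23 (PP1 with 4OHT against PP1), 0 to 5 (MEKi with 4OHT against MEKi), 23 to 36 (MEKi with 4OHT against 4OHT), 9 to 17 (PP1 with 4OHT against 4OHT), 12 to 18 (PP1 with 4OHT against MEKi with 4OHT) and 6 to 17, 5 to 11 and 1 to 4 in the interactions. The lower members in 4OHT against DMSO numbered 5 without DMSO clone b and 3 without DMSO clone c. Of 44 members without exon overlap, 5 were higher and 5 lower in 4OHT against DMSO and 10 and 0 in PP1 with 4OHT against PP1. That is 22.7% called in each, against 52% and 31.3% of all tested genes. Exons of 12 of the 22 members higher in PP1 with 4OHT against PP1 overlap exons of another gene.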
